A study of Mus musculus with 8 samples.

Results

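Macroautophagy is carried out in mammalian cells by a small set of conserved proteins, and the genes for 35 of them were followed here in the ageing mouse brain. The genes were chosen by name and by the step at which their products act: initiation, nucleation, membrane supply, conjugation, the ATG8 family of conjugated proteins and the cargo receptors. The rule uses no measured value, although earlier results of these data were known when the genes were chosen. All 35 were listed among the 22430 genes of the count table and all 35 passed the filter on low counts that left 16730 genes for testing. Poly(A) RNA was sequenced from a brain hemisphere of 4 male C57Bl/6JRj mice aged 6 months (6m) and 4 aged 24 months (24m), with 1 library for each animal, and the labels name no treatment. The replicates are separate animals, so p-values measure the spread between libraries of separate animals. The labels call the tissue whole brain.

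Autophagy encloses cytoplasm in a membrane compartment, the autophagosome, and delivers it to the lysosome. The ULK1 kinase complex starts the process, a lipid kinase complex built around Beclin 1 marks the membrane with phosphatidylinositol 3-phosphate, lipid transfer proteins feed the growing membrane, and a pair of ubiquitin-like conjugation reactions fix ATG8 proteins to it. Receptors such as p62 bind both ATG8 proteins and ubiquitinated cargo. Neurons do not divide and depend on this route to clear aggregates and old organelles, and mice whose neurons lack Atg5 or Atg7 develop neurodegeneration.

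The libraries held between 63460940 and 103462414 counts. The deepest was 24m replicate 1, and totals of the ages did not differ beyond their spread (two-sided exact permutation test over 70 assignments, p = 0.0857, where the smallest possible p is 0.0286). Counts of single members ran from 78 to 98745 in a library. Genes on the other strand overlapped 27 members and genes on the same strand overlapped 7 (Uvrag, Atg9a, Atg4c, Atg5, Atg7, Atg16l1 and Gabarapl1), so counts of these may hold reads of a neighbour. Mitochondrially encoded genes took 5.26 to 6.52% of the counts at 6m and 3.18 to 3.69% at 24m. Of the markers of brain cell types, none was at 0 in the table. By the rule for calls given with the members below, 25.3% of all tested genes were called higher at 24m and 18.3% lower. Among 8 neuronal markers 3 were called higher and 1 lower, with summed levels of 3599 to 4005 CPM (counts of a gene in each 1000000 counts of a library) at 6m and 4065 to 4226 at 24m. Of 8 astrocyte markers 5 were called higher and 1 lower (2892 to 3826 CPM against 2847 to 3844), of 9 microglial markers 3 were higher (515 to 591 against 473 to 761), of 8 oligodendrocyte markers 2 were higher (3446 to 4306 against 3745 to 4305), and of 7 endothelial markers 2 were higher and 2 lower (72.4 to 108 against 43.1 to 65.6). Each sum weighs abundant markers most. For astrocytes Aldoc, which was not called, had a mean of 2507 CPM at 6m and 2057 at 24m. A sum can therefore stay level while markers of its list were called. The counts of called markers moved with the processing. Neurons went to 5 higher and 0 lower after quantile normalisation (3573 and 3891 of all genes). Endothelial cells went to 0 in either direction with the trend over principal transcript length removed (18.4% and 14% of all genes). Their part in the results below was not tested, and in bulk tissue fewer cells of a type and less RNA per cell cannot be told apart.

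Levels are given as CPM over library sizes scaled by the trimmed mean of M values (TMM), and changes as log2 fold changes of 24m over 6m with their standard errors (SE). A gene was called when its adjusted p, over all tested genes, was at most 0.05 and its log2 fold change was at least 0.58 in size. At 24m 8 of the 35 autophagy genes were called higher (22.9%) and 4 were called lower (11.4%), 12 in all (34.3%). Among all tested genes 25.3% were called higher, 18.3% lower and 43.6% in either direction, and no test of the difference between members and background was made. Those higher were Ulk1, Ulk2, Uvrag, Atg14, Atg2b, Wipi2, Atg4c and Nbr1, and those lower were Atg101, Atg4d, Map1lc3a and Gabarap. With the adjusted p alone and no limit on the size of the change, 23 autophagy genes passed (65.7%), against 62.6% of all genes. By direction 16 members were higher (45.7%) and 7 lower (20%), against 32.7% and 29.9% of all genes. The libraries of the ages did not overlap for 21 members (60%) and for 55.2% of all genes. The median log2 fold change was 0.09 over the 35 members and -0.0034 over all genes. On library totals without TMM scaling the median of all genes moved to 0.21, and 12 members were called higher and 2 lower, beside 5449 and 1746 of all genes (4237 and 3058 with TMM). After quantile normalisation 7 members were called higher and 2 lower, beside 3573 and 3891 of all genes.

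**Figure D1:**
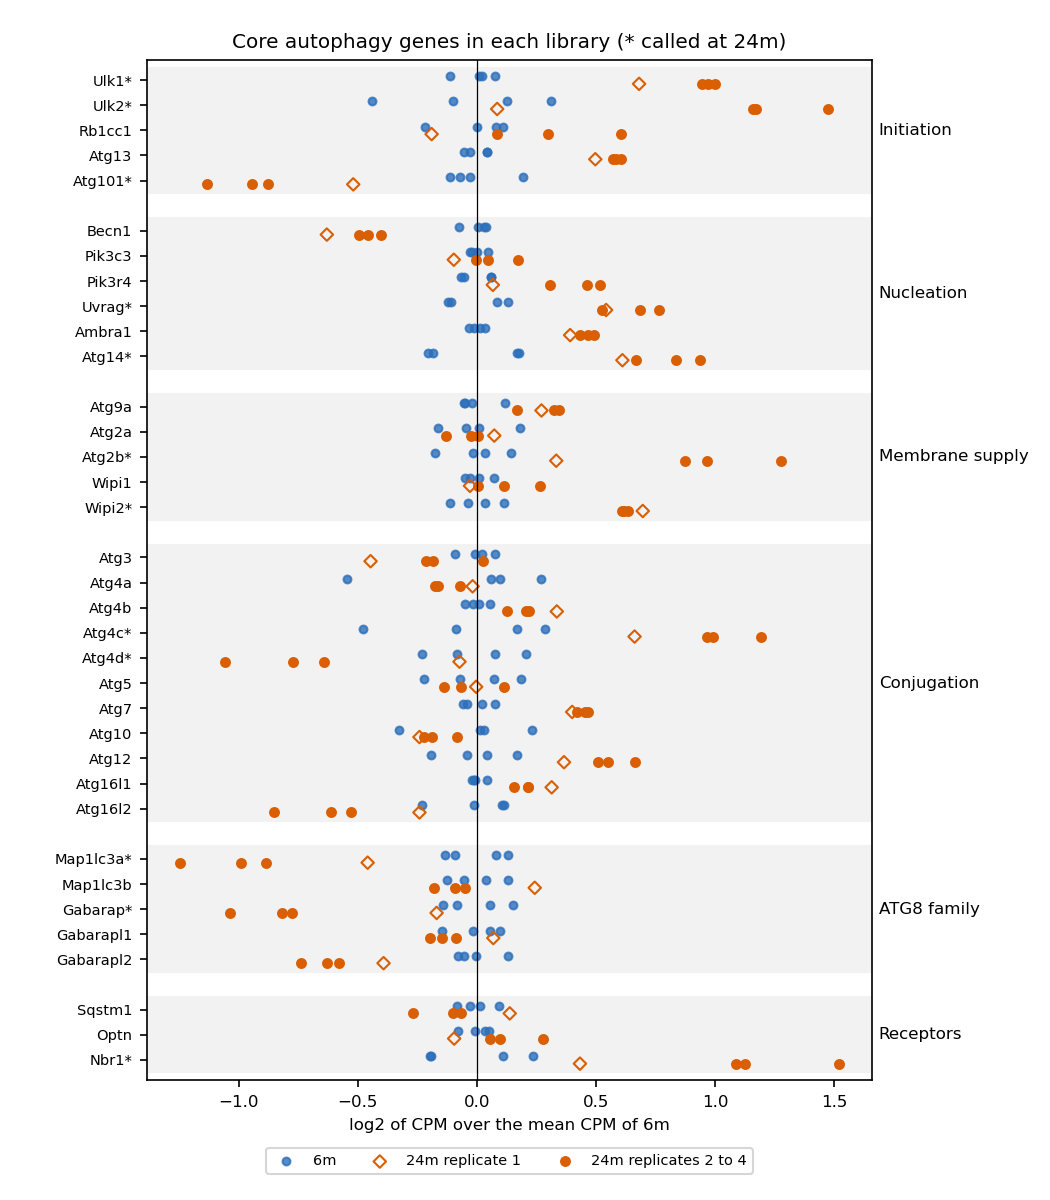
Level of each of the 35 genes in each of the 8 libraries, as log2 of its CPM over the mean of the 4 libraries at 6m (horizontal axis), with genes grouped by step; blue points are 6m, orange points 24m, and open diamonds 24m replicate 1. In 10 of the 12 called genes, marked with a star, the open diamond is the library of 24m nearest to the 6m mean.

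At initiation, both kinase genes rose and that of an accessory subunit fell. Of 5 genes 2 were called higher and 1 lower, beside 25.3% and 18.3% of all genes, and the median log2 fold change was 0.57. Ulk1 (ENSMUSG00000029512, chr5:110931496-110957995, minus strand; all gene positions are those of GRCm39) encodes the kinase that receives the signals of nutrient and energy state. It stood at 46.6, 51.1, 50.7 and 53.2 CPM in the libraries of 6m and at 80.8, 97.2, 101 and 98.8 CPM in those of 24m. Every 24m library lay above every 6m library, and the change of 0.90 ± 0.09 (adjusted p = 6.9e-05) was a 1.87-fold rise. Ulk2 (ENSMUSG00000004798, chr11:61665841-61746170, minus strand), its close relative, read 13.8, 18.3, 16.1 and 10.9 CPM at 6m and 15.7, 33.2, 33.0 and 41.1 CPM at 24m. Here 24m replicate 1 lay within the range of 6m and the other three stood above it, for a change of 1.06 ± 0.27 (adjusted p = 0.00706) that was 1.29 without that library. With the trend over exonic length removed both kinase genes stayed called (0.68 and 0.73), and with that over principal transcript length removed neither was (0.31 for Ulk1 and 0.38 for Ulk2).

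Atg101 (ENSMUSG00000037204, chr15:101181252-101188834, plus strand), which steadies Atg13 in the complex, went the other way. Its CPM was 89.1, 84, 86.5 and 104 at 6m against 63.4, 47.3, 49.4 and 41.4 at 24m, with no overlap. The change was -0.85 ± 0.13 (adjusted p = 0.000543), so that the level dropped by 44.6%. It was not called with the exonic (-0.36) or the principal transcript (-0.29) length trend removed. Atg13 itself, the adaptor between kinase and scaffold, changed by 0.57 ± 0.07 (adjusted p = 0.000156). It thus missed the limit on size alone. Its CPM ran from 65.4 to 69.9 at 6m and from 95.9 to 103.3 at 24m. It was called without 24m replicate 1 (0.61), on library totals (0.79) and after quantile normalisation (0.65). With the exonic or the principal transcript length trend removed it was not called (0.19 and -0.0301). Rb1cc1, which encodes the scaffold FIP200, changed by 0.23 ± 0.16 (adjusted p = 0.242), and its libraries overlapped. Per kilobase of principal transcript, the mean level of Atg101 at 6m was 66.2 CPM, against 11 for Atg13, 8.29 for Ulk1, 2.22 for Ulk2 and 2.14 for Rb1cc1. At 24m Atg101 was still the highest, at 36.7 CPM per kilobase, followed by Atg13 at 16.3, Ulk1 at 15.5, Ulk2 at 4.62 and Rb1cc1 at 2.51. Per kilobase of all exons Ulk1 stood above Atg13 at both ages (6.77 against 6.54 CPM at 6m and 12.7 against 9.68 at 24m).

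At nucleation 2 cofactors of the lipid kinase rose, and the gene of the kinase itself gave a change near 0. Of 6 genes 2 were called higher and none lower, beside 25.3% and 18.3% of all genes, with a median of 0.40. Atg14 (ENSMUSG00000037526, chr14:47778235-47808106, minus strand) directs the complex to the site where autophagosomes form. Its level was low, at 5.88, 7.67, 7.63 and 5.98 CPM in 6m and 10.4, 10.8, 12.1 and 13.0 CPM in 24m. The groups were apart in every library, with a change of 0.77 ± 0.13 (adjusted p = 0.000988) that lost its call after quantile normalisation (0.47). Uvrag (ENSMUSG00000035354, chr7:98533079-98790496, minus strand) takes the place of Atg14 in another form of the complex that acts on endosomes and late autophagosomes. It read 21.9, 25.9, 25.1 and 21.7 CPM at 6m and 34.5, 34.1, 38.1 and 40.2 CPM at 24m, again without overlap, and changed by 0.63 ± 0.10 (adjusted p = 0.000517). Its call was lost after quantile normalisation (0.55), with the GC trend removed (0.51) and with either length trend removed (0.08 and 0.03).

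Becn1, the gene of the scaffold Beclin 1, was lower without reaching the limit on size. Its 6m libraries lay between 148 and 160 CPM and its 24m libraries between 100.5 and 118 CPM, a change of -0.49 ± 0.08 (adjusted p = 0.000501). Ambra1, an activator of Beclin 1, changed by 0.45 ± 0.07 (adjusted p = 0.000434), from a mean of 67.0 ± 1.34 CPM (SD, n = 4) to 91.3 ± 2.77 (SD, n = 4). For Pik3r4, the regulatory subunit VPS15, the change was 0.35 ± 0.11 (adjusted p = 0.0167). Pik3c3, the catalytic subunit VPS34, gave 0.03 ± 0.08 (adjusted p = 0.737) with overlapping libraries. With a length trend removed Pik3r4 changed sign (-0.0191 over exonic and -0.12 over principal transcript length) and Becn1 was called lower (-0.71 and -0.85). In those fits Pik3c3 changed by -0.36 (adjusted p = 0.00171) and -0.35 (adjusted p = 0.00105), and Ambra1 by 0.28 and -0.0834.

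The promoters of Atg14 and Ulk1 are shown because both genes were called higher and differ in whether they hold the E-box CACGTG, the core of the sequence bound by TFEB, a transcription factor that drives autophagy and lysosome genes. Each window holds 300 bases, most of them upstream of the start that RefSeq gives the gene, from its table of build GRCm38.p6, and each was found once in GRCm39, at the position given; capitals mark the motif. The GENCODE gene model of Atg14 reaches further upstream than the RefSeq start, so its window lies inside that model.
Atg14, chr14:47805842-47806141, minus strand: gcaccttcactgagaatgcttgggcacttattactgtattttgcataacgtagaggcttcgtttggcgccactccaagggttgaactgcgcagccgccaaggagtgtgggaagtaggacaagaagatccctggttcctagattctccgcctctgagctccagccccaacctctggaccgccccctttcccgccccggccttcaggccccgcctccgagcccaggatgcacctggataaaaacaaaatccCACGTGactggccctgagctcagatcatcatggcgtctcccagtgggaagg
Ulk1, chr5:110957898-110958197, minus strand: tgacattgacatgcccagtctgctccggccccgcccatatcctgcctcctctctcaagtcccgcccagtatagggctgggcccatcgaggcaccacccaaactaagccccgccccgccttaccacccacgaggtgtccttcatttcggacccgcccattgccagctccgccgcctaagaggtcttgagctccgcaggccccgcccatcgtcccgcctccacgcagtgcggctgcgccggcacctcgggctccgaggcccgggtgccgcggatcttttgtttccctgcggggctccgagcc

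The table held 32 such windows for 29 of the 35 members. CACGTG, which reads the same on both strands, was in 4 of them (12.5%), those of Atg14, Atg3, Atg5 and Atg7, and in 7.15% of all 32851 windows. Of these 4 genes Atg14 was called. Atg7 changed by 0.43, Atg3 by -0.20 and Atg5 by -0.02, and none of the last group reached a call. The longer palindromic form of the CLEAR element, which also holds the E-box, was in 0 of the 32 windows and in 0.33% of all windows. A match is a description of the letters in these windows and was not tested for binding. Tfeb itself, picked here for its link to the motif after its value was seen, changed by -0.41 ± 0.16 (adjusted p = 0.0489) and was not called.

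Among the genes of membrane supply, those for 1 lipid transfer protein and 1 phosphoinositide effector rose. Of 5 genes 2 were called higher and none lower, beside 25.3% and 18.3% of all genes, with a median of 0.28. Neither call held with a length trend removed (0.31 and 0.12 for Atg2b, 0.25 and 0.15 for Wipi2). Atg2b (ENSMUSG00000041341, chr12:105579795-105651569, minus strand) encodes a rod-shaped protein that moves lipid from the endoplasmic reticulum into the growing membrane. Its libraries read 19.5, 21.8, 24.4 and 22.6 CPM at 6m and 27.8, 40.4, 43.2 and 53.5 CPM at 24m. There was no overlap, 24m replicate 1 was the lowest of its age, and the change was 0.90 ± 0.18 (adjusted p = 0.00174). Its paralog Atg2a changed by -0.02 ± 0.09 (adjusted p = 0.870), with means of 84.7 ± 8.54 CPM (SD, n = 4) at 6m and 83.6 ± 4.88 at 24m. Per kilobase of principal transcript Atg2a stood at 13.3 CPM at 6m and 13.1 at 24m, and Atg2b at 2.16 and 4.02, so Atg2a was the higher of the pair at both ages.

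Wipi2 (ENSMUSG00000029578, chr5:142613453-142656343, plus strand) binds phosphatidylinositol 3-phosphate and brings in the conjugation machinery. In the 6m libraries it stood at 49.6, 54.9, 52.2 and 58 CPM and in the 24m libraries at 87.0, 81.9, 82.3 and 83.3 CPM. The aged libraries were close together and all above the young, with 24m replicate 1 the highest, for a change of 0.64 ± 0.08 (adjusted p = 0.000142). Wipi1, a related effector, changed by 0.09 ± 0.10 (adjusted p = 0.430) at a level of 12 to 13 CPM in 6m and 12.2 to 14.9 CPM in 24m. Atg9a, the lipid scramblase carried by vesicles to the forming membrane, changed by 0.28 ± 0.08 (adjusted p = 0.0102), with means of 159 ± 9.22 CPM (SD, n = 4) at 6m and 192 ± 10.3 at 24m.

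Of 11 genes of the conjugation enzymes and proteases, 1 was called higher and 1 lower, beside 25.3% and 18.3% of all genes. The median was -0.02. Both called genes encode ATG4 proteases, which trim newly made ATG8 proteins and later cut them from the membrane. Atg4c (ENSMUSG00000028550, chr4:99082118-99171179, plus strand) read 6.33, 8.20, 7.56 and 4.83 CPM at 6m and 10.6, 13.4, 13.2 and 15.4 CPM at 24m, apart in every library. It changed by 0.97 ± 0.18 (adjusted p = 0.00132), and by 0.38 without a call once the principal transcript length trend was removed. Atg4d (ENSMUSG00000002820, chr9:21176496-21189068, plus strand) read 112, 90.8, 100.5 and 123 CPM at 6m and 101, 68.3, 62.4 and 51.2 CPM at 24m. Its 24m replicate 1 lay among the young libraries and the other three below them all, for a change of -0.59 ± 0.19 (adjusted p = 0.0224). That call rested on single libraries: leaving out replicate 1 (-0.56) or 4 (-0.52) of 6m, or any of replicates 2 (-0.57), 3 (-0.53) and 4 (-0.46) of 24m, ended it, and leaving out 24m replicate 1 gave -0.79. It was also lost on library totals (-0.38), after quantile normalisation (-0.53), with the GC trend removed (-0.53) and without a filter on low counts.

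The other proteases did not reach a call. Atg4b, the most active of them on most ATG8 proteins, changed by 0.22 ± 0.08 (adjusted p = 0.0260), and Atg4a, with 1.18 to 2.07 CPM the lowest of all the members, by -0.10 ± 0.18 (adjusted p = 0.634). Atg7, the E1-like enzyme of both conjugation reactions, changed by 0.43 ± 0.07 (adjusted p = 0.000909), from 22.4 ± 0.97 CPM (SD, n = 4) to 30.3 ± 0.64. The E2-like enzymes Atg3 and Atg10 gave -0.20 ± 0.11 (adjusted p = 0.133) and -0.18 ± 0.14 (adjusted p = 0.264). Of the parts of the complex that directs ATG8 conjugation, Atg5 gave -0.02 ± 0.12 (adjusted p = 0.888), Atg12, the ubiquitin-like protein joined to Atg5, gave 0.53 ± 0.12 (adjusted p = 0.00325), and Atg16l1, which brings the pair to the membrane, gave 0.23 ± 0.07 (adjusted p = 0.0197). Its relative Atg16l2 was lower by a change of -0.54 ± 0.14 (adjusted p = 0.00714). Atg16l1 and Atg16l2 were thus on opposite sides of 0, each without overlap between the ages and each under the limit on size, but with the exonic length trend removed Atg16l1 was also below 0 (-0.21, and -0.83 for Atg16l2). Atg12 was called without 6m replicate 2 (0.59) or 24m replicate 1 (0.60), and Atg16l2 without the same libraries (-0.61 and -0.64). The change of Atg12 was 0.23 after quantile normalisation. It was 0.23 (adjusted p = 0.0561) with the exonic and 0.0149 (adjusted p = 0.898) with the principal transcript length trend removed.

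The ATG8 family are ubiquitin-like proteins that are joined to a membrane lipid through a glycine near their end, which the ATG4 proteases expose. The ends of the coding sequences are shown because the family is compared gene by gene below and because its members differ in what follows that glycine. Each line gives the last 60 bases before the stop codon of the principal transcript, from the GENCODE annotation on GRCm39, with the codon of the last glycine in capitals.
Map1lc3a: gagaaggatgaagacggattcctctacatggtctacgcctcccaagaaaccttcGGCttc
Map1lc3b: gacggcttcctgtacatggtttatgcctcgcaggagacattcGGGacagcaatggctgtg
Gabarap: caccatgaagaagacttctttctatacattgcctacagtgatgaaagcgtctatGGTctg
Gabarapl1: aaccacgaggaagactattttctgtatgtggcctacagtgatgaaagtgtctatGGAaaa
Gabarapl2: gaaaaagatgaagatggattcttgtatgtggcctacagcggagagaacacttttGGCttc

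The glycine was codon 116 of 117 in Gabarap, Gabarapl1 and Gabarapl2, codon 120 of 121 in Map1lc3a and codon 120 of 125 in Map1lc3b, so 1 codon followed it in the other four and 5 in Map1lc3b. Over the whole coding sequence 74.9% of bases were the same in Map1lc3a and Map1lc3b and 74.6% in Gabarap and Gabarapl1, with the longest shared runs 15 and 17 bases. Gabarapl2 shared 63.5% with Gabarap and 64.4% with Gabarapl1, and bases in common between the LC3 and the GABARAP branches ranged from 51.7 to 55.9%.

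Within this family 2 genes fell, 1 was lower just under the limit on size, and 2 gave changes near 0. Of the 5 genes 2 were called lower and none higher, beside 18.3% and 25.3% of all genes, and the median was -0.58. Map1lc3a (ENSMUSG00000027602, chr2:155118217-155119998, plus strand) read 589, 508, 522 and 611 CPM at 6m and 406, 302, 281 and 235 CPM at 24m. All aged libraries lay below all young ones, with 24m replicate 1 the nearest, and the change of -0.87 ± 0.16 (adjusted p = 0.00115) was a fold of 0.548. Gabarap (ENSMUSG00000018567, chr11:69881888-69886109, plus strand) stood at 415, 377, 361 and 444 CPM in 6m and 355, 233, 226 and 194 CPM in 24m. The lowest young and the highest aged library were close but did not overlap, and the change was -0.66 ± 0.17 (adjusted p = 0.00776). That call was lost without 24m replicate 4 (-0.56) and the change was -0.85 without 24m replicate 1.

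Gabarapl2 (ENSMUSG00000031950, chr8:112667322-112682011, plus strand), also known as GATE-16, read 286, 272, 277 and 314 CPM at 6m and 219, 193, 186 and 172 CPM at 24m. The ages were apart, the change of -0.58 ± 0.09 (adjusted p = 0.000656) was -0.579 before rounding and so just under the limit, and it was called in 4 of the 8 fits that left out 1 library. Map1lc3b (ENSMUSG00000031812, chr8:122317100-122325499, plus strand), the gene of the protein commonly blotted as LC3, read 147, 164, 154 and 176 CPM at 6m and 189.5, 155, 150.04 and 141 CPM at 24m. Its 24m replicate 1 was the highest of all 8 libraries and the other three of that age lay within or below the range of the young, for a change of -0.01 ± 0.11 (adjusted p = 0.933). Gabarapl1 (ENSMUSG00000030161, chr6:129509725-129520544, plus strand) read 589, 677, 643 and 697 CPM at 6m and 683, 588, 613 and 568 CPM at 24m, with overlap and a change of -0.09 ± 0.09 (adjusted p = 0.430). On library totals alone or after quantile normalisation Map1lc3b and Gabarapl1 changed sign (0.20 and 0.13; 0.13 and 0.26), while Map1lc3a, Gabarap and Gabarapl2 were lower under every scaling. The calls did not all hold: on totals alone Gabarap (-0.46) lost its call, and after quantile normalisation Map1lc3a (-0.58, or -0.5796 before rounding) and Gabarap (-0.47) lost theirs. With the exonic or the principal transcript length trend removed neither Map1lc3a (-0.18 and -0.19) nor Gabarap (-0.22 and -0.29) was called, and the median of the family was -0.22 and -0.15. Gabarapl2 changed by -0.52 and -0.15 in those fits, by -0.36 on totals alone and by -0.43 after quantile normalisation. None of these was a call, while with the GC trend removed Gabarapl2 was called (-0.72).

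The family's summed level was 1958 to 2241 CPM at 6m and 1311 to 1852 CPM at 24m. Per kilobase of principal transcript the order at 6m was Map1lc3a with 501 CPM, Gabarapl1 with 358, Gabarap with 226, Gabarapl2 with 170.0 and Map1lc3b with 63.3. At 24m Gabarapl1 was first with 337 CPM per kilobase, followed by Map1lc3a with 275, Gabarap with 143, Gabarapl2 with 114 and Map1lc3b with 62.8. Per kilobase of all exons instead, Map1lc3a was first at both ages (423 and 232 CPM), Gabarap and Gabarapl1 were level at 6m (177 and 176 CPM) and apart at 24m (112 and 166 CPM). Map1lc3b was lowest by either length at both ages.

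**Figure D2:**
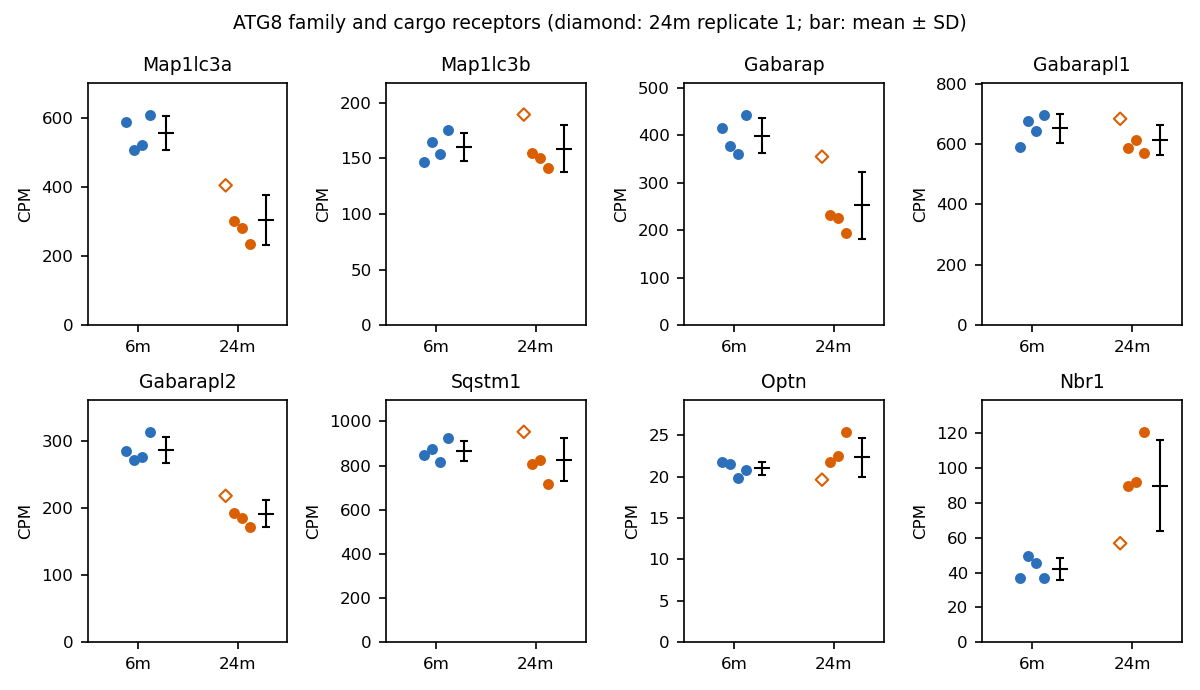
Level in CPM (vertical axis, from 0) of the 5 ATG8 family genes and the 3 cargo receptors in each library of 6m (blue) and 24m (orange, with 24m replicate 1 as an open diamond); bars give the mean ± SD of 4 libraries. Map1lc3a, Gabarap and Gabarapl2 lie lower at 24m without overlap, Nbr1 lies higher, and Map1lc3b, Gabarapl1, Sqstm1 and Optn overlap.

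Of the 3 cargo receptors, Nbr1 rose and the other 2 overlapped between the ages. Thus 1 was called higher and none lower, beside 25.3% and 18.3% of all genes. Nbr1 (ENSMUSG00000017119, chr11:101442962-101472781, plus strand) binds ubiquitinated proteins and peroxisomes and gathers p62 into condensates. It read 36.7, 49.5, 45.3 and 36.7 CPM at 6m and 56.7, 89.5, 91.6 and 120.5 CPM at 24m. No aged library reached down to a young one, 24m replicate 1 was the nearest, and the change of 1.09 ± 0.21 (adjusted p = 0.00145), a 2.13-fold rise, was the largest among the 35 members in this fit. Sqstm1 (ENSMUSG00000015837, chr11:50089572-50107684, minus strand), the gene of p62, was at 850.3, 874, 817 and 925 CPM in 6m and 953, 808, 826 and 718 CPM in 24m. Its aged libraries held both the highest and the lowest value, and the change was -0.07 ± 0.10 (adjusted p = 0.576). Optn (ENSMUSG00000026672, chr2:5022703-5068945, minus strand), the gene of optineurin, a receptor for damaged mitochondria, read 21.7, 21.5, 19.9 and 20.8 CPM at 6m and 19.6, 21.8, 22.4 and 25.4 CPM at 24m. Both extremes were again aged libraries, with a change of 0.09 ± 0.10 (adjusted p = 0.442).

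The change of a gene went with the length of its transcript, in the members as in the table as a whole. Median length of the principal transcript was 6023 bases in the 8 genes called higher, 1568.5 in the 4 called lower and 3762 in the 23 not called, against 3273 over all tested genes. The 3 called lower with short transcripts were Map1lc3a with 1112 bases, Atg101 with 1373 and Gabarap with 1764. Atg4d, at 6044 bases, was the exception. Spearman's rho between change and length was 0.615 over the 35 members and 0.563 over the 16677 tested genes with an annotated length; these points share the same 8 libraries and are given as a description. Set against the middle 50% of genes of like length, in 20 bins, 27 members lay within, 3 above (Atg14, Nbr1 and Wipi1) and 5 below (Becn1, Atg4d, Atg16l2, Atg2a and Atg101).

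**Figure D3:**
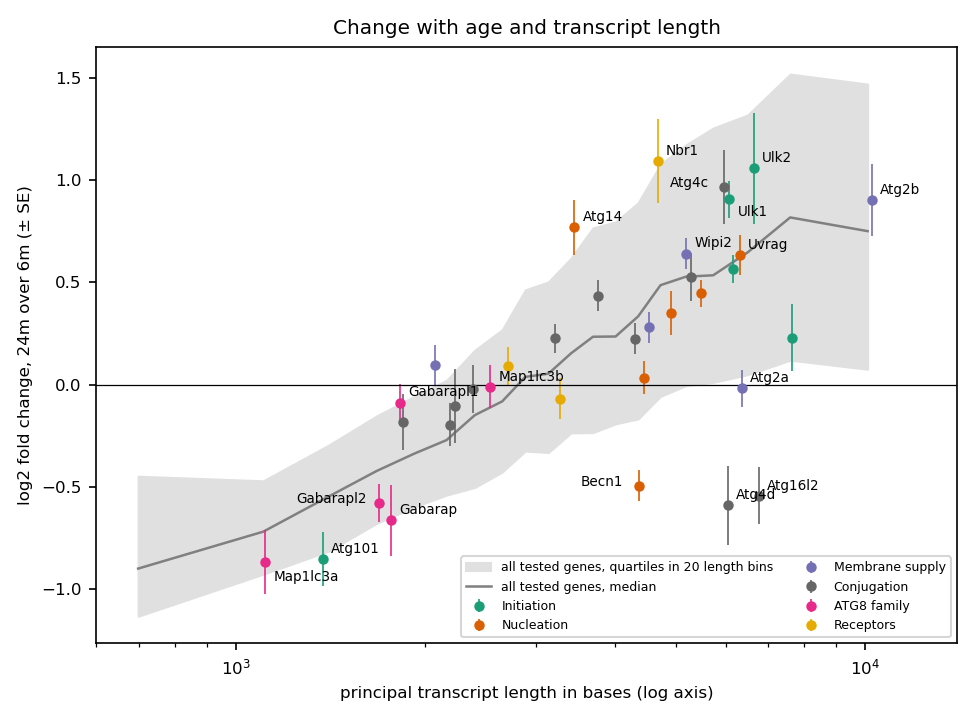
Log2 fold change of 24m over 6m (± SE) of the 35 genes against the length of the principal transcript in bases on a log axis, coloured by step, over the median and quartiles of all tested genes in 20 bins of length. Median change of all genes runs from -0.90 in the shortest bin to 0.75 in the longest, and Becn1, Atg4d, Atg16l2, Atg2a and Atg101 lie below the quartiles of their bins.

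Calls were therefore also made after the trend of count with length was taken out of every library. With the trend over exonic length removed, 5 members were called higher (14.3%) and 3 lower (8.57%), beside 22.2% and 16% of all genes. Those higher were Ulk1 (0.68), Ulk2 (0.73), Atg14 (0.77), Atg4c (0.59) and Nbr1 (0.83), and those lower Becn1 (-0.71), Atg4d (-0.84) and Atg16l2 (-0.83). With the trend over principal transcript length removed, a fit added after the data were seen, Atg14 (0.61) and Nbr1 (0.65) were called higher and Becn1 (-0.85), Atg2a (-0.62), Atg4d (-1.13) and Atg16l2 (-1.14) lower, beside 18.4% and 14% of all genes called higher and lower. In that fit Ulk1 (0.31, adjusted p = 0.00913), Ulk2 (0.38, adjusted p = 0.0927) and Atg4c (0.38, adjusted p = 0.0268) lost their calls. Of the 12 genes called without correction, Atg14, Atg4d and Nbr1 were called in both of these fits and 6 in neither: Atg101 (-0.36 and -0.29), Uvrag (0.08 and 0.03), Atg2b (0.31 and 0.12), Wipi2 (0.25 and 0.15), Map1lc3a (-0.18 and -0.19) and Gabarap (-0.22 and -0.29). All 12 kept their direction. Becn1 and Atg16l2, which were not called without correction, were called lower in both.

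**Figure D4:**
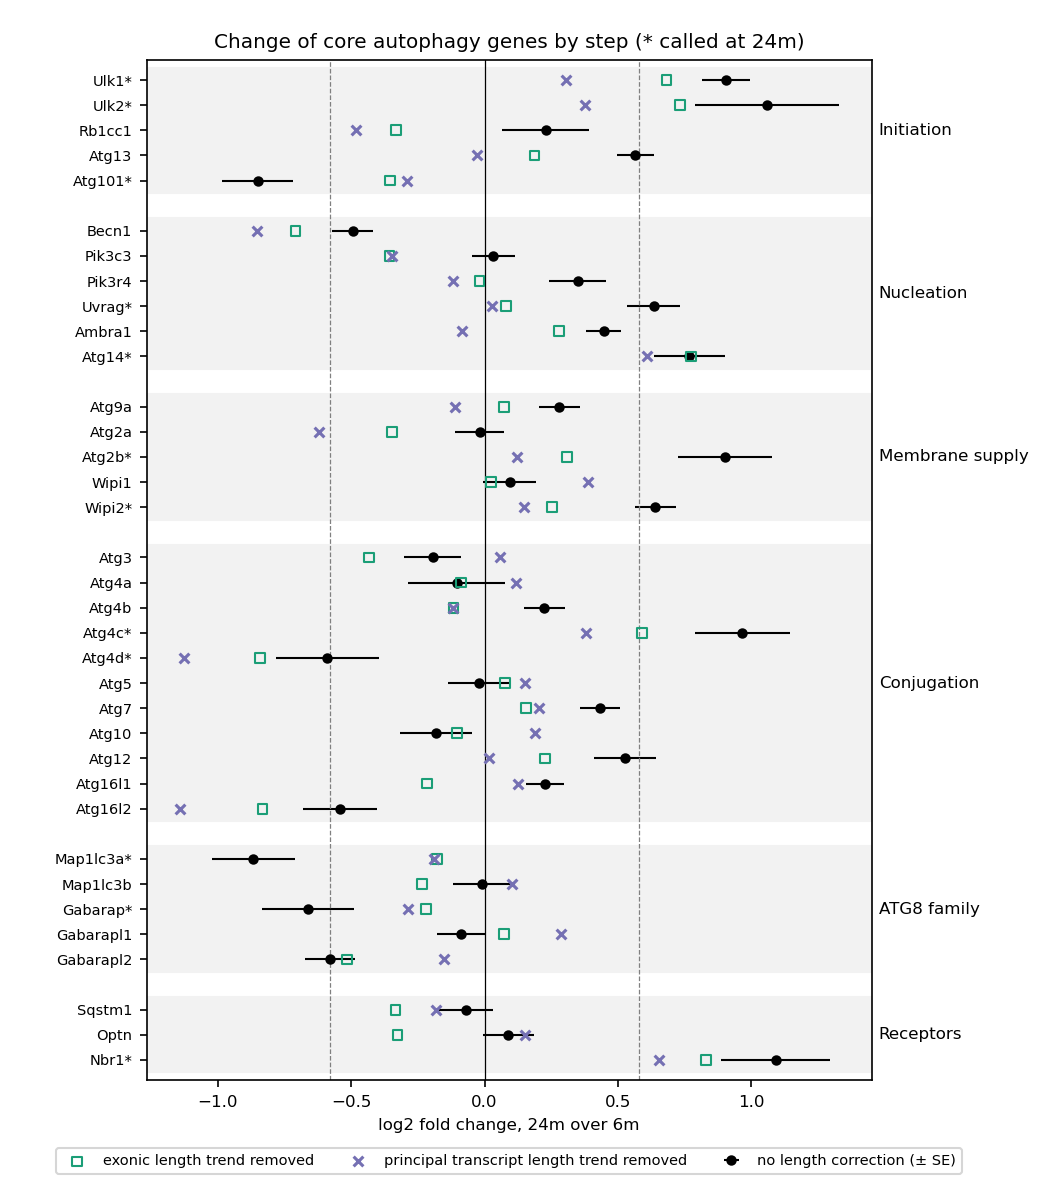
Log2 fold change of 24m over 6m of each gene, grouped by step; black points with bars give the change ± SE without length correction, open squares the change with the exonic length trend removed and crosses that with the principal transcript length trend removed, and dashed lines mark 0.58 in either direction. Nbr1 and Atg14 lie beyond the upper line under every setting shown, and Map1lc3a and Gabarap move inside the lower line once length is taken out.

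The genes upstream and downstream of the core were read from lists drawn up by role. Of 15 genes of upstream signalling and transcription 7 were called higher and none lower, with a median of 0.46, beside 25.3% and 18.3% of all genes. With the exonic length trend removed 4 of them were higher and 2 lower (median 0.19), beside 22.2% and 16% of all genes. With the principal transcript length trend removed 3 were higher and 2 lower (median 0.20), beside 18.4% and 14% of all genes. Foxo3, a transcription factor that drives autophagy genes, read 3.99, 4.95, 4.20 and 4.18 CPM at 6m and 15.2, 26.8, 29.7 and 38.3 CPM at 24m, a change of 2.67 ± 0.25 (adjusted p = 5.02e-05). Prkaa2, a catalytic subunit of the energy sensor AMPK, which activates ULK1, was low at 0.82, 0.93, 0.86 and 0.38 CPM and rose to 1.67, 3.86, 3.37 and 5.10 CPM, a change of 2.22 ± 0.37 (adjusted p = 0.000734). Both were apart in every library and both stayed called with either length trend removed (2.31 and 1.96 for Foxo3, 1.92 and 1.46 for Prkaa2).

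Of 10 further genes of the early machinery 2 were called higher, beside 25.3% of all genes, with a median of 0.13. These were Rubcn, the gene of the inhibitor Rubicon, which binds the Uvrag form of the lipid kinase complex (1.23 ± 0.10, adjusted p = 3.28e-05), and Tmem41b, a lipid scramblase of the endoplasmic reticulum (0.92 ± 0.17, adjusted p = 0.0012), of which Tmem41b lost its call with the principal transcript length trend removed (0.47). None of the 10 was called lower, beside 18.3% of all genes. Atg9b, named after its value was seen, was called lower after quantile normalisation (-0.68) and with the principal transcript length trend removed (-0.68). Those fits called 3891 genes and 14% of all genes lower, in that order. Of 20 further receptors and adaptors 6 were called higher and 2 lower, beside 25.3% and 18.3% of all genes, and the median was 0.12. With the exonic length trend removed 6 were higher and 4 lower, beside 22.2% and 16% of all genes. Wdfy3, the gene of the aggregate adaptor ALFY, changed by 2.49 ± 0.39 (adjusted p = 0.000527), with 11.3 to 17.6 CPM at 6m and 31.1 to 143 CPM at 24m. Tollip, an adaptor for ubiquitinated proteins, changed by 1.46 ± 0.11 (adjusted p = 2.36e-05). The 2 lower were receptors of the endoplasmic reticulum, Sec62 (-1.23 ± 0.09, adjusted p = 2.36e-05) and Tex264 (-0.63 ± 0.14, adjusted p = 0.00316). The call of Tex264 was lost on library totals (-0.42), after quantile normalisation (-0.51), with the GC trend (-0.57) or the principal transcript length trend removed (-0.35), and without 24m replicate 4 (-0.53).

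Of 16 genes of transport and of fusion with the lysosome 5 were called higher and 1 lower, and the median was 0.41, beside 25.3% and 18.3% of all genes. With the exonic length trend removed 3 were higher and 1 lower with a median of 0.15, beside 22.2% and 16% of all genes. The 1 lower was Vps41 (-0.90), named after its value was seen. With the principal transcript length trend removed 5 were higher and 2 lower with a median of 0.12, beside 18.4% and 14% of all genes. On library totals 9 were higher and 1 lower, beside 5449 and 1746 of all genes. Epg5, a tether that gives autophagosomes their specificity for the lysosome, changed by 1.63 ± 0.22 (adjusted p = 0.000269), and Snap29, a fusion SNARE, by 1.55 ± 0.16 (adjusted p = 6.94e-05). Their partner on the lysosome, Vamp8, read 66.0, 45.2, 43.8 and 62.8 CPM at 6m and 50.3, 26.5, 24.5 and 19.2 CPM at 24m, a change of -0.85 ± 0.28 (adjusted p = 0.0229) with 24m replicate 1 inside the range of the young libraries. Leaving out replicate 1 (-0.75) or 4 (-0.78) of 6m, or replicate 2 (-0.80) or 3 (-0.76) of 24m, ended its call, as did removal of the exonic (-0.576) or the principal transcript length trend (-0.05).

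**Figure D5:**
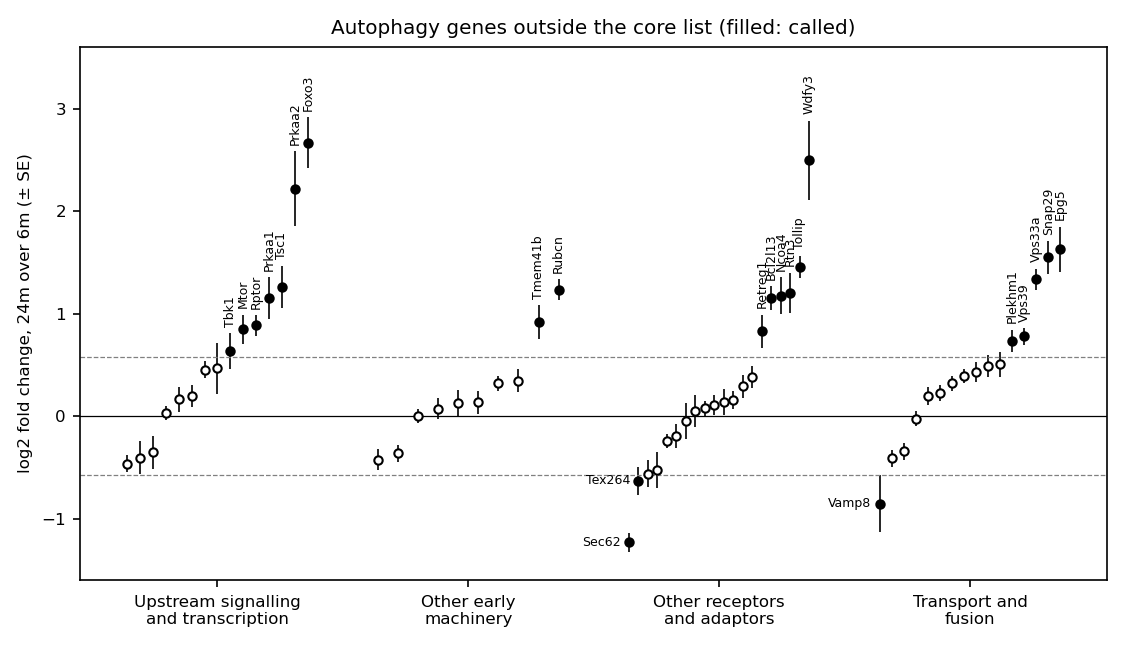
Log2 fold change of 24m over 6m (± SE, vertical axis) of 61 autophagy genes outside the core list, in 4 lists by role and ordered by size within each; filled points were called and are named, and dashed lines mark 0.58 in either direction. Foxo3, Wdfy3 and Prkaa2 lie highest, above 2, and Sec62 lowest.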

How the data were processed

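The deposited values are raw counts per Ensembl gene for each library. Per the labels and the study's methods, libraries were made with NEBNext Ultra II Directional poly(A)+ and sequenced in pairs, and the authors trimmed reads with Trim Galore 0.4.11, aligned them with HISAT2 2.1.0 to GRCm39 and counted them with featureCounts, whose strand and multiple-mapping settings are not given in the sources used here. Gene names, positions and lengths came from GENCODE vM39 on GRCm39 (22281 of 22430 identifiers matched; the others held 0.312% of counts), a later release than the authors'. The principal transcript is the best supported coding transcript there. Genes above 5 counts in 4 or more of the 8 libraries were fitted with edgeR 4.0.16 (TMM, quasi-likelihood test, R 4.3.3), p-values were adjusted by Benjamini-Hochberg over all 16730, and SE is the log2 fold change divided by the root of F. The members and all lists were chosen with earlier results of these data known. Every member is named; per-library values are given for called members, the ATG8 family and the receptors, and from each further list at most 2 genes called higher and 2 called lower, by size of change. Alternatives were DESeq2 1.42.0, limma 3.58.1 (voom), other scalings and filters, a replicate block, removal of length or GC trends (lowess, span 0.3, over log2 CPM) and each library left out. The script was tested on simulated counts. Libraries of the same age were not copies of each other (chi-square per degree of freedom 8.18 to 417), and 24m replicate 1 stood apart, at 179 to 417 from the others of its age, which lay 13.0 to 61.2 from each other. The spread between libraries, 1 for each animal, thus exceeded counting error.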

Additional observations from a re-analysis of the deposited data

Results flagged for a closer look

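Over the 35 members and both ages, 70 groups of 4 libraries were examined for a library far from its group, and 1 was found; chance gives about 1 in 20 groups. It was Atg16l1 at 6m, where replicate 3 read 48.6 CPM and the other three lay between 46.5 and 46.8 CPM, a gap of 0.83 of the range. The library was above its group by less than the difference of the ages, since the lowest library of 24m read 52.5 CPM.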

How the results depend on the processing

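Of the 12 called members, none changed direction under any of 20 other settings, and Nbr1 alone was called under all of them. Among members not called, 18 changed direction under some setting. Leaving out each library in turn gave 8 to 10 members called higher and 2 to 6 lower; the count of 2 came without 24m replicate 4, and that of 6 without 24m replicate 1 or 6m replicate 2. Among all genes these fits called 3825 to 4673 higher and 2615 to 3592 lower. Without TMM scaling 2 members were called lower, beside 1746 of all genes. DESeq2 on quantile-normalised counts also called 2 lower, beside 3891 of all genes. The adjusted p alone gave 16 higher and 7 lower, beside 5479 and 4999 of all genes. With the exonic length trend removed 5 members were higher, likewise 5 with the replicate block added, and with the principal transcript length trend removed 2 were. Beside these, 3712, 3642 and 3082 of all genes were called higher. The cause of these shifts was not tested.

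Replicate numbers are shared between the ages, and deviations of the same number correlated at 0.27, 0.14, 0.08 and -0.35, with 2 of 8 libraries correlating best with their own number, so the numbers were not taken as pairs. A replicate block gave 8 members higher and 5 lower, and 4112 and 3130 of all genes.

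On totals alone the sign turned for Atg2a (0.20), Atg3 (0.0295), Atg4a (0.11), Atg5 (0.19), Atg10 (0.0337), Map1lc3b (0.20), Gabarapl1 (0.13) and Sqstm1 (0.15). With quantile normalisation it turned for Atg2a (0.0468), Wipi1 (-0.16), Map1lc3b (0.13), Gabarapl1 (0.26), Sqstm1 (0.27) and Optn (-0.0551). With the exonic length trend removed it turned for Rb1cc1 (-0.33), Pik3c3 (-0.36), Pik3r4 (-0.0191), Atg4b (-0.12), Atg5 (0.0763), Atg16l1 (-0.21), Gabarapl1 (0.0717) and Optn (-0.33), and with the replicate block added for the same genes (-0.33, -0.36, -0.0188, -0.13, 0.0798, -0.23, 0.0739 and -0.32). With the principal transcript length trend removed it turned for Rb1cc1 (-0.48), Atg13 (-0.0301), Pik3c3 (-0.35), Pik3r4 (-0.12), Ambra1 (-0.0834), Atg9a (-0.11), Atg3 (0.0576), Atg4a (0.12), Atg4b (-0.12), Atg5 (0.15), Atg10 (0.19), Map1lc3b (0.10) and Gabarapl1 (0.29). With the GC trend removed it turned for Rb1cc1 (-0.0308), Pik3c3 (-0.21), Atg2a (0.13), Map1lc3b (0.043) and Optn (-0.0864). Leaving out single libraries spanned 0 for Pik3c3 (-0.0156 to 0.0945), Atg2a (-0.0695 to 0.0469), Atg5 (-0.0876 to 0.0471) and Map1lc3b (-0.0856 to 0.0421).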
